A study of Mus musculus with 4 samples.

Results

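The Th1 axis is described here through 10 genes chosen by name as the receptors, factors and targets of T helper 1 differentiation. The table used here has a row for 9 of them among its 16718 genes, and Ifng, the interferon gamma gene, is not analysed here. The RNA came from naive mouse CD4+ T cells stimulated for 4 hours with an antibody to CD3, which engages the T cell receptor. The labels name 2 wild-type libraries (WT) and 2 libraries from cells with a conditional knockout of the zinc finger factor Zfp281 (cKO), and all cells had the same stimulation. Neither the driver of the deletion nor the strain, age or sex of the mice is given in the sources used here. For each gene the authors' table holds a single FPKM value per genotype (fragments scaled to gene length and library depth). It is unclear if that value averages the libraries of a genotype, pools them or comes from a single library. The spread between libraries is therefore not known, and every difference below lacks a check by replicates.

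As background, T helper 1 cells arise when an activated CD4+ T cell receives interleukin-12 and interferon gamma. The interleukin-12 receptor, built from the chains Il12rb1 and Il12rb2, signals through the transcription factor Stat4. The interferon gamma receptor, built from Ifngr1 and Ifngr2, favours expression of T-bet, the lineage factor encoded by Tbx21. T-bet acts with Runx3 to turn on Ifng and the chemokine receptor gene Cxcr3, and Eomes is a T-box factor related to T-bet that is best known from CD8 T cells and NK cells.

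Intervals below are 95% intervals computed from read numbers that were estimated from FPKM and gene length, and they cover counting error only. The estimated depth was 17466738 reads for the WT column and 17308544 for the cKO column, whichever libraries a column stands for. The words rose and fell are used for genes that reached 1 FPKM in either genotype and had an FDR, in the authors' deposited table, below 0.05. The deposited p-values track those of a test on the estimated reads of the columns alone (r = 0.999 on the log10 scale). That FDR is therefore taken to carry no variation between mice or cultures, although the authors' test is not named. Zfp281 (NCBI gene 226442) stood at 66.3 FPKM in WT against 0.44 FPKM in cKO, in the direction of the labels. The defining T cell markers Cd3d, Cd3e, Cd3g and Cd4 stood between 196 and 382 FPKM in both genotypes, and all 8 genes of the T cell marker list were lower in cKO. The 8 genes summed to 2504 FPKM in WT and 2020 FPKM in cKO. Their log2 ratios ranged from -0.06 for Cd4 to -0.98 for Thy1. Fewer cells of a type and less RNA per cell cannot be told apart in such bulk samples.

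All 9 measured Th1 axis genes reached 1 FPKM in either genotype. Of these, 6 rose in cKO (Il12rb2, Eomes, Ifngr1, Stat4, Ifngr2 and Runx3), 2 fell (Cxcr3 and Tbx21) and Il12rb1 did not pass. Across all 10728 genes tested 36.7% passed, 19.9% higher and 16.9% lower. Of the 9 genes 6 passed with a change of at least 1.5-fold, against 4.96% of all genes tested. The genes were chosen with earlier results of these data known, so these shares are a description only. The share of genes that passed grew with level, from 16.7% of those whose higher value lay between 1 and 5 FPKM to 54.0% of those at 20 FPKM or more, and the share that passed with at least 1.5-fold moved the opposite way, from 10.7% to 2.51%. The median change of the 9 genes was 0.43 on the log2(FPKM + 1) scale, beside 0.02 for all genes tested. A separate test on the estimated reads assumed variation of 10% (CV) in each genotype beyond counting error. By that test Il12rb2, Eomes, Ifngr1 and Cxcr3 still had an FDR below 0.05, and at 20% none of the 9 did.

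**Figure D1:**
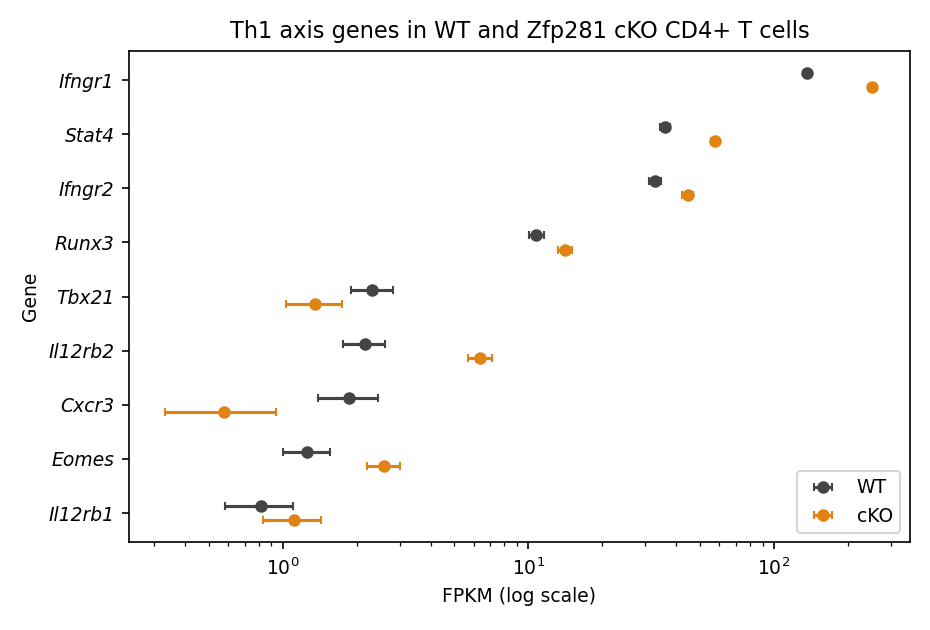
Level of each measured Th1 axis gene in WT (grey) and cKO (orange), in FPKM on a log axis, ordered by the WT level. Points are the authors' values, 1 per genotype, and bars are exact 95% Poisson intervals on estimated reads, which cover counting error only. Cxcr3 and Tbx21 lie lower in cKO and the other 7 genes higher, with overlapping bars for Il12rb1.

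The RefSeq table of promoters (GRCm38.p6, the assembly that mm10 names) held 9 of the 10 genes, all but Il12rb1, and the 250 bases before the transcription start are printed for 4 of them: Il12rb2 and Cxcr3, with the largest rise and the largest fall, and the related T-box genes Eomes and Tbx21, which moved in opposite directions. All are given 5′ to 3′ on the strand of the gene. The Il12rb2 stretch is at chr6:67376189-67376438 on the minus strand, that of Cxcr3 at chrX:101734148-101734397 on the minus strand, that of Eomes at chr9:118477939-118478188 on the plus strand, and that of Tbx21 at chr11:97115332-97115581 on the minus strand. Capitals mark a match to the interferon gamma activated site, TTCNNNGAA, to which STAT factors bind.
Il12rb2: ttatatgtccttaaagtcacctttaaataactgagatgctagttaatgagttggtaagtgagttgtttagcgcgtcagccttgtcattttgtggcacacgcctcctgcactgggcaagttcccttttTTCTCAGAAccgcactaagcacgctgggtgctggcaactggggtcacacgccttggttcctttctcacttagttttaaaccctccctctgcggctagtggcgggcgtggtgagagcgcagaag
Cxcr3: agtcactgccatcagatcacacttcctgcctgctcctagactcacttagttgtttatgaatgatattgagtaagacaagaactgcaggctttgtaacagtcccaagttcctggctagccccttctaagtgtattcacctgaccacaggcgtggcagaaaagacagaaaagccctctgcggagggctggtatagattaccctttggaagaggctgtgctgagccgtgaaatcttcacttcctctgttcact
Eomes: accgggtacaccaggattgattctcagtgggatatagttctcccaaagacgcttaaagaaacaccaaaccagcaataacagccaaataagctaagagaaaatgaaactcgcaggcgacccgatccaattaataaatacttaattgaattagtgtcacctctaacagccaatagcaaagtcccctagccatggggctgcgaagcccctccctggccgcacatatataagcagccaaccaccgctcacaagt
Tbx21: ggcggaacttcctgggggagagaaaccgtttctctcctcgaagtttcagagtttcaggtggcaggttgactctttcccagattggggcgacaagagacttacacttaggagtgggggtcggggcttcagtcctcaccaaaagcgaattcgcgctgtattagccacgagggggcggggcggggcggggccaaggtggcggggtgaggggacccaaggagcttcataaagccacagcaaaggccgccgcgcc

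A total of 3 motifs was searched on both strands in the windows of those 9 genes, each of 300 bases, 250 before and 50 after a start. The interferon gamma activated site, whose 2 strands read alike, had 1 match in the Il12rb2 window, at TTCTCAGAA, with its first base 123 bases before the start. Ifng, which has no expression value here, also had 1 match, no window of the other 7 genes searched held it, and 8.30% of all 32851 promoters in the table did. GGGGAGGGG, a G-rich run of the kind bound by Zfp281, was in no window of the 9 genes searched and in 6.37% of all promoters. TNACACCT, a T-box motif, was in none of them and in 3.03% of all. Among promoters of genes tested the shares were 6.93% for the interferon gamma activated site, 8.37% for GGGGAGGGG and 2.33% for TNACACCT. At such shares no conclusion can be drawn from the absence of a motif in so few windows. These matches describe letters in a window and not binding. The 4 windows differed in base composition, with 62.0% G and C for Tbx21, 53.0% for Il12rb2, 49.3% for Cxcr3 and 47.3% for Eomes, beside a median of 52.7% over all promoters.

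The interleukin-12 receptor is taken first. Il12rb2 (NCBI gene 16162, GRCm38 chromosome 6, 67285986 to 67376293) encodes the signalling chain that naive T cells lack and gain on the way to the Th1 state. Its level was 2.16 FPKM in WT and 6.35 FPKM in cKO, on about 104 and 303 reads. The rise was 2.94-fold (95% interval 2.35 to 3.71), with an FDR of 9.15e-24 in the authors' deposited table, and 92 of the 10728 genes tested had a larger ratio, genes listed at 0 in WT included. The 3′ part of Il12rb2 overlaps Serbp1, a gene on the opposite strand with which it shares 1519 exon bases in GENCODE, and whose own level was 93.7 FPKM for WT and 79.2 FPKM for cKO. Whether the counting used strand is not given in the sources used here, so reads from the shared stretch cannot be told apart, and their part in the Il12rb2 values was not tested. Il12rb1 (NCBI gene 16161, chromosome 8, 70808360 to 70823542), the chain that binds the shared p40 subunit of interleukin-12 and interleukin-23, was the lowest of the 9 genes in WT, at 0.82 FPKM. Its cKO value of 1.11 FPKM was 1.35 times as high (0.887 to 2.08), with an FDR of 0.334 in the authors' deposited table. Both chains thus had few reads, and the ratio of Il12rb2 to Il12rb1 went from 2.63 in WT to 5.72 in cKO, a 2.17-fold shift (1.37 to 3.45).

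Stat4 (NCBI gene 20849, chromosome 1, 51987106 to 52107189), the factor that interleukin-12 activates, was already abundant in WT at 35.95 FPKM and reached 57.4 FPKM in cKO. That was a 1.60-fold rise (1.501 to 1.70), with an FDR of 1.43e-50 in the authors' deposited table. A GENCODE gene on the same strand, Gm28177, shares 1033 exon bases with Stat4 and has no row in the table used here, so reads from both may be in the Stat4 value. The rise of Stat4 was smaller than that of Il12rb2, and the ratio of Stat4 to Il12rb2 went from 16.6 in WT to 9.03 in cKO, to 0.543 of the WT ratio (0.431 to 0.684).

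Both chains of the interferon gamma receptor rose, by different amounts. Ifngr1 (NCBI gene 15979, chromosome 10, 19591949 to 19610229) encodes the chain that binds the ligand. It was the highest of the 9 genes in both genotypes, with 136 FPKM in WT against 251 FPKM in cKO on an estimated 5051 and 9216 reads. Its 1.84-fold rise (1.78 to 1.91) had the narrowest interval relative to its size among the 9, and an FDR of 8.92e-274 in the authors' deposited table. Ifngr2 (NCBI gene 15980, chromosome 16, 91547059 to 91564007) encodes the signalling chain, whose level limits the response to interferon gamma in T cells. It went from 32.9 to 44.5 FPKM, 1.35-fold (1.25 to 1.46), with an FDR of 6.69e-14 in the authors' deposited table. The ratio of Ifngr1 to Ifngr2 therefore went from 4.14 to 5.64, a 1.36-fold shift (1.25 to 1.48).

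**Figure D2:**
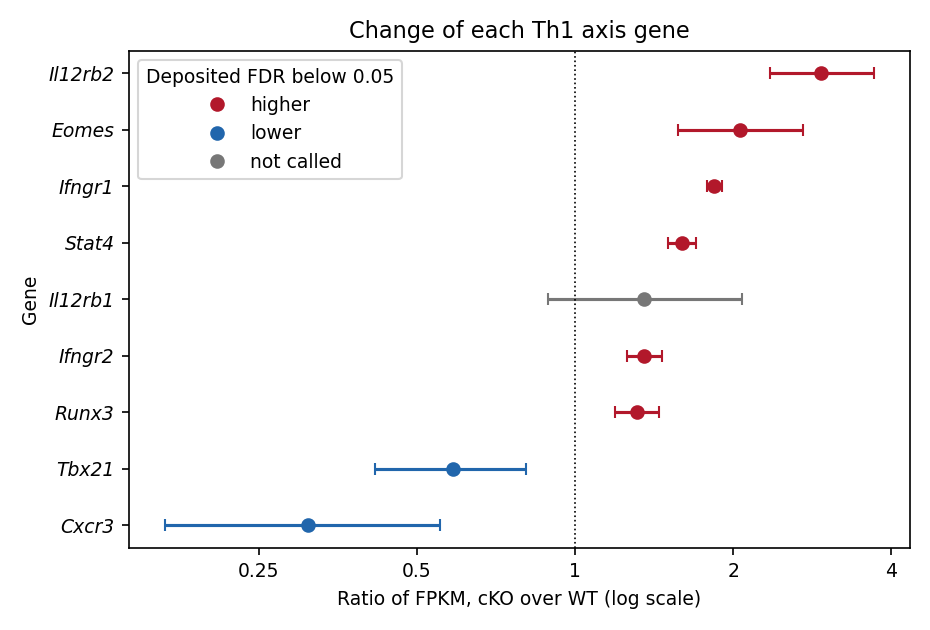
Ratio of the cKO to the WT value for each measured Th1 axis gene on a log axis, with exact 95% intervals on estimated reads that cover counting error only. Genes right of the dotted line at 1 that passed by the deposited FDR are red, those left of it blue, and Il12rb1, which did not pass, is grey with an interval from 0.887 to 2.08.

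The 2 T-box factors moved in opposite directions. Tbx21 (NCBI gene 57765, chromosome 11, 97098007 to 97115331) measured 2.32 FPKM in WT against 1.36 FPKM in cKO, on an estimated 104 and 60 reads. The fall, to 0.586 of WT (0.416 to 0.807), had an FDR of 0.00525 in the authors' deposited table. Eomes (NCBI gene 13813, chromosome 9, 118478186 to 118486132) measured 1.26 FPKM in WT against 2.59 FPKM in cKO, on 82 and 167 estimated reads, a 2.06-fold rise (1.57 to 2.71), with an FDR of 6.31e-07 in the authors' deposited table. Tbx21 was thus the higher of the pair in WT and Eomes in cKO: the ratio of Eomes to Tbx21 went from 0.543 to 1.90, a 3.51-fold shift (2.32 to 5.30). In GENCODE a gene on the opposite strand, Gm33460, shares 118 exon bases with Eomes and has no row in the table used here. A ratio of 2 genes within a column does not depend on how the columns were scaled.

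Runx3 (NCBI gene 12399, chromosome 4, 135120645 to 135177990), the partner of T-bet in turning on Ifng, was several times more abundant than either T-box gene. It went from 10.8 to 14.1 FPKM, 1.31-fold (1.19 to 1.45), the smallest change among the genes that passed, with an FDR of 3.65e-07 in the authors' deposited table. Its ratio to Tbx21 went from 4.65 to 10.4, a 2.24-fold shift (1.60 to 3.12).

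Cxcr3 (NCBI gene 12766, chromosome X, 101731535 to 101734147), a direct T-bet target that guides Th1 cells to inflamed tissue, went from 1.87 FPKM in WT down to 0.58 FPKM in cKO, on an estimated 52 and 16 reads. Its fall to 0.310 of WT (0.165 to 0.552) had an FDR of 9.33e-05 in the authors' deposited table, and 79 of the genes tested had a smaller ratio, genes listed at 0 in cKO included. The ratio of Cxcr3 to Tbx21 went from 0.806 to 0.426, and the interval of that shift, 0.278 to 1.01, includes 1. So the fall of Cxcr3 was not distinguishable at this depth from that of Tbx21.

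**Figure D3:**
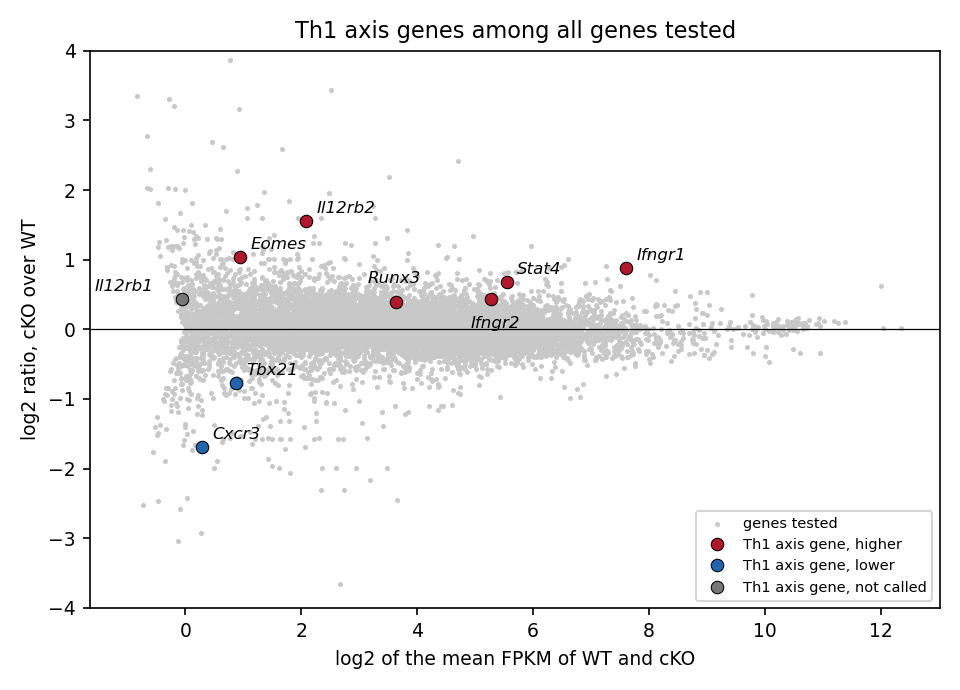
Log2 ratio of cKO over WT against the log2 of the mean FPKM for all genes tested (grey), with the 9 Th1 axis genes coloured by their call. The vertical axis ends at 4 in both directions and leaves out 109 genes, 106 of them listed at 0 in 1 genotype. Ifngr1 and Stat4 stand at the edge of the grey cloud at high levels, while Il12rb1, Eomes, Tbx21 and Cxcr3 lie where it is widest.

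In WT the levels, compared per length in FPKM, ran in the order Ifngr1, Stat4, Ifngr2, Runx3, Tbx21, Il12rb2, Cxcr3, Eomes and Il12rb1. Stat4 (34.3 to 37.7 FPKM) and Ifngr2 (31.0 to 34.8 FPKM) were neighbours whose counting intervals overlapped, and so did those of each neighbouring pair from Tbx21 down to Il12rb1. In cKO the order was Ifngr1, Stat4, Ifngr2, Runx3, Il12rb2, Eomes, Tbx21, Il12rb1 and Cxcr3. There the intervals of Il12rb2 (5.66 to 7.12 FPKM), Eomes (2.21 to 3.01 FPKM) and Tbx21 (1.04 to 1.75 FPKM) lay apart, while those of Tbx21 and Il12rb1 overlapped, as did those of Il12rb1 and Cxcr3 (0.331 to 0.940 FPKM). With 2 values per gene no likeness of pattern between genes could be computed.

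Genes around the axis were read from 7 lists, some of which share genes such as Jak2 and Irf1. These lists too were chosen with earlier results of these data known. Their counts are to be read against the 36.7% of all genes tested that passed (19.9% higher, 16.9% lower), a share that reached 54.0% at 20 FPKM or more. Of 18 tested genes for interleukin-12, interleukin-18 and interleukin-27 receptors and signalling, 5 rose, 2 fell and 11 did not pass, a share close to that of all genes tested, and with a CV of 10% assumed 0 passed. Gadd45b, a stress-induced activator of the p38 kinase pathway, rose 1.47-fold from 55.3 to 81.0 FPKM, and Map2k3, a kinase upstream of p38, fell to 0.742 of WT. Of the kinases bound to the interleukin-12 receptor Jak2 rose 1.16-fold, and Tyk2 had 23.2 and 24.3 FPKM and did not pass. The ligand genes Il12a and Il12b had at most 0.11 FPKM in either genotype, on 5 estimated reads or fewer.

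Downstream of the interferon gamma receptor, 6 of 14 signalling genes rose, 3 fell and 5 did not pass. Jak1, a kinase bound to Ifngr1, rose 1.11-fold from 179 to 199 FPKM. Ptpn6, which encodes the phosphatase SHP-1, fell to 0.627 of WT (0.604 to 0.651), with 188 FPKM in WT against 118 FPKM in cKO, and the ubiquitin ligase gene Cbl fell to 0.727. Of 19 interferon gamma induced genes 9 rose, 1 fell and 9 did not pass, beside 19.9% of all genes tested that rose. Most of the 19 reached 20 FPKM, a level at which 54.0% of all genes tested passed in either direction. The share of the list that passed is close to that. With at least 1.5-fold required 1 of the 19 was higher (Gbp3) and 1 lower, and with a CV of 10% assumed 0 genes of the signalling list and 0 of the induced list passed. Among the guanylate-binding protein genes Gbp3 rose 1.71-fold, from 4.25 to 7.25 FPKM, and Gbp5 rose 1.43-fold, and the GTPase gene Igtp rose 1.25-fold. Cd274, which encodes PD-L1, was the gene that fell, to 0.657 of WT. The medians of these lists were 0.10 and 0.14 on the log2(FPKM + 1) scale, beside 0.02 for all genes tested.

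Cofactors and modulators of the Th1 program moved both ways, with 5 of 14 higher, 6 lower and 3 not passing, and with a CV of 10% assumed 0 were higher and 1 lower. Id2, an inhibitor of E protein factors, fell to 0.523 of WT (0.462 to 0.590), or from 34.9 to 18.2 FPKM. Irf4 fell to 0.809, while Ets1, a T-bet cofactor, rose 1.27-fold. Of 10 Th1 effector genes at 1 FPKM or more, 2 rose, 5 fell and 3 did not pass, and with a CV of 10% assumed 1 was higher and 2 lower. Their median was -0.29 on the log2(FPKM + 1) scale, -0.42 with a pseudocount of 0.1, and -0.09 over all 17 measured genes of the list with no filter on low values. Fasl, the death ligand gene, fell to 0.465 of WT (0.399 to 0.539), from a WT level of 16.8 FPKM, and the chemokine gene Ccl4 fell from 4.00 to 1.53 FPKM on an estimated 45 and 17 reads. Tnf fell to 0.614 of WT, Lta to 0.643 and the perforin gene Prf1 to 0.806. The 2 that rose were Ccr2, a chemokine receptor gene, from 0.56 to 1.40 FPKM, and Selplg, the selectin ligand gene, 1.31-fold.

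**Figure D4:**
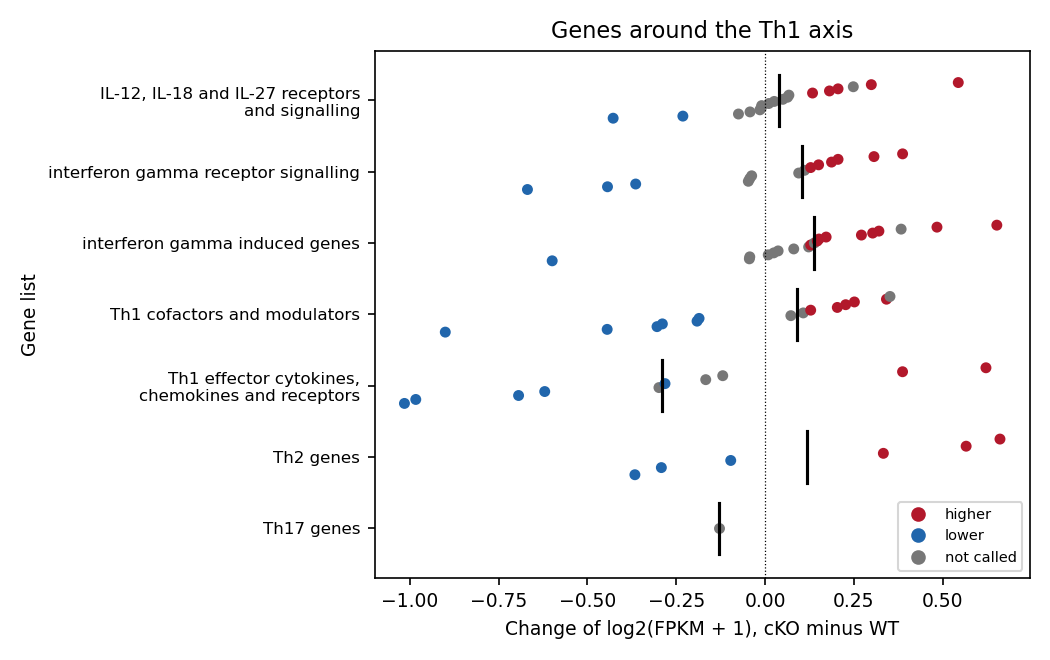
Change of log2(FPKM + 1), cKO minus WT, for each tested gene of the 7 lists around the Th1 axis, coloured by call, with the list median as a black bar. The effector list has its median at -0.29 (-0.09 with its 7 genes under 1 FPKM included) and the other lists with more than 1 tested gene have theirs between 0.04 and 0.14.

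Genes of the other helper lineages were compared in the same way. All 6 tested Th2 genes passed, 3 in each direction, and with a CV of 10% assumed 0 passed. Il4ra, the interleukin-4 receptor chain, rose from 91.8 to 146 FPKM, 1.59-fold (1.54 to 1.63), the chemokine receptor gene Ccr4 rose 1.55-fold, and Gata3, the Th2 lineage factor, rose 1.30-fold from 7.17 to 9.29 FPKM. Maf fell to 0.652 of WT and Stat6 to 0.935. Of 8 measured Th17 genes 7 stayed under 1 FPKM, and the one tested, Rora, had 1.21 and 1.02 FPKM and did not pass.

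Markers of cells that could be mixed with naive CD4+ T cells bear on the members with few reads. The CD8 T cell markers Cd8a and Cd8b1 summed to 11.8 FPKM in WT and 18.3 FPKM in cKO. Cd8b1, the one that reached 1 FPKM, rose from 11.5 to 17.8 FPKM and made up nearly all of these sums. Cd8a stayed under 1 FPKM in both genotypes, with an FDR of 0.285 in the authors' deposited table. The 5 measured NK cell markers summed to 4.50 and 7.48 FPKM. Klrd1, the one tested, rose from 3.62 to 6.28 FPKM, while Klrb1c and Gzma were at 0.13 FPKM or less in both genotypes and Klre1 was listed at 0 in WT. The 3 measured gamma delta T cell markers summed to 0.43 and 2.38 FPKM, and Cd163l1, the one tested, rose from 0.17 to 1.57 FPKM. The 8 B cell markers summed to 13.1 and 22.0 FPKM, with Pax5 listed at 0 in WT, and 2 of the 4 tested rose. The 9 myeloid markers summed to 5.70 and 6.63 FPKM, and 1 of the 2 tested rose (Lyz2, from 0.22 to 1.09 FPKM). Cd68, the other one tested, was lower in cKO (log2 ratio -0.27) and did not pass, with an FDR of 0.301 in the authors' deposited table. Of 7 memory, naive and activation markers 4 rose and 3 fell, with Cd44 at 3.58 and 4.69 FPKM, Ccr7 at 210.4 and 345 FPKM and Il2ra at 32.5 and 25.5 FPKM. The part of such cells in the values of Eomes, Il12rb2, Tbx21 and Cxcr3 was not tested.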

How the data were processed

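Sequencing used a BGISEQ-500 instrument, per the labels' protocols. Bowtie2 2.2.5 and build mm10 stand in the submitters' processing notes. No source used here names the quantification tool, the annotation, the use of strand or the authors' test. Expression in FPKM was deposited as 1 column per genotype, and the lowest value, 0.01, was read as 0. The authors' log2 fold change is the log2 ratio of these deposited columns. The authors' p-value per gene was used as deposited, and the deposited FDR was handled as a score because it reaches 1.03. Symbols turned into dates (24 genes) were restored through their NCBI gene IDs with RefSeq names (GRCm38.p6).

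A gene was called where it reached 1 FPKM in either genotype and its deposited FDR was below 0.05. No test across genes was added. Reads were estimated as FPKM times length, less 37 bases, divided by the value of 1 read. That value came from genes whose p-value was that of 1 read against none, of which 94.3% of 157 (cKO) and 89.1% of 147 (WT) lay within 10% of 1 read. A read test in the manner of Audic and Claverie on these reads correlated with the deposited p-values at r = 0.999 on the log10 scale across 16707 genes, which are not independent, with the depth ratio of 0.991 taken from those p-values. Folds carry exact Clopper-Pearson intervals, levels exact Poisson intervals, and shifts in the ratio of 2 genes normal intervals on the log scale (SciPy 1.17.1). The read tests were also run on simulated reads with known fold changes, and the outcome of that run is not reported here.

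The members and gene lists were chosen with earlier results of these data known, and 1 listed gene was left out of the lists and is not reported here. Named list genes were passing genes with at least a 1.5-fold change, at most 6 per list, and up to 2 further passing genes with the smallest p-value. Jak2, Tyk2, Il12a, Il12b, Rora and Serbp1 were named after their values were seen. Alternatives were other filters, size thresholds, pseudocounts, a median scaling and an assumed variation (CV) in the reads of each genotype. Calls with an assumed CV came from a normal test on the log ratio of estimated reads, and those with median scaling from the read test. Both had a Benjamini-Hochberg FDR over the genes tested in place of the deposited FDR.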

Additional observations from a re-analysis of the deposited data

How the results depend on the processing

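No paired analysis was possible because the table holds 1 value per genotype, and for the same reason leaving out single libraries was not run. The counts of Th1 axis genes, 6 higher and 2 lower, were the same genes with no filter on low values and with the median change of all genes, 0.02 (log2), set to 0. At 5 FPKM or more 5 were higher and 0 lower, since Eomes, Tbx21 and Cxcr3 are below that level. By the authors' mark (FDR of at most 0.001 and 2-fold) Il12rb2 and Eomes were higher (2) and Cxcr3 lower (1). Judged by its match to a read test, the deposited test is taken to allow no variation between libraries. Assuming 10% variation (CV) in the reads of each genotype, 3 were higher (Il12rb2, Eomes and Ifngr1) and 1 lower (Cxcr3), and with 20% 0 and 0. Over the whole table, with 2130 higher and 1811 lower, the authors' mark gave 63 and 60, a 1.5-fold minimum 321 and 211, the CV of 10% 104 and 84, and that of 20% 11 and 6. Of the 27 recomputed changes of single members 26 stayed within their counting interval, and 1, Il12rb2, moved from 1.56 to 1.22 (log2) with a pseudocount of 1. List medians moved by over 0.1 in 2 of 14 recomputations, both of the Th1 effector list (-0.42 with a pseudocount of 0.1 and -0.09 with no filter), and none changed sign, and of 98 recomputed list counts 46 were lower and 2 higher by more than 1.5 times. Cxcr3, Tbx21, Eomes and Il12rb1 rest on 16 to 167 estimated reads per genotype, which sets the width of their intervals.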
